A study of Homo sapiens with 4 samples.

Results

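The RNA exosome is the main 3′ to 5′ RNA-degrading complex of human cells, and its EXOSC genes, EXOSC1 to EXOSC10, were compared between nuclear and cytoplasmic RNA of HEK293T cells. The 10 genes were chosen by symbol and not by any measured value, and they are 10 of the 23333 genes that were tested between the fractions. HEK293T is an established cell line derived from human embryonic kidney cells that expresses the large T antigen of SV40. All 4 libraries came from wildtype cells treated with formaldehyde as a crosslinker before fractionation, and no other agent or genotype was compared. There were 2 nuclear and 2 cytoplasmic libraries, given as 2 biological replicates of 1 cell line. They were made from equal masses of RNA with a kit that removes ribosomal RNA. The fraction of a library is taken from its title, since the source label of all 4 reads total cell. A value is therefore a share of a fraction's RNA, and a larger share cannot be told apart from a different amount of total RNA in that fraction per cell.

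The exosome core has the shape of a barrel. EXOSC4 to EXOSC9, relatives of the bacterial enzyme RNase PH, form a ring, and EXOSC1, EXOSC2 and EXOSC3, which carry S1 and in part KH RNA-binding domains, form a cap on it through which RNA is threaded. In human cells the ring itself has no catalytic activity. RNA is cut by DIS3, mainly in the nucleoplasm, by DIS3L in the cytoplasm, and by EXOSC10, the relative of yeast Rrp6 that is concentrated in the nucleolus. The nuclear complex trims ribosomal RNA precursors and removes promoter upstream transcripts and other short-lived RNAs, while the cytoplasmic complex acts in mRNA turnover. These roles are those of the proteins, while the values here are those of the RNAs that encode them, introns included.

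The values rest on the deposited comparison of the fractions and on counts per library derived from it. The mean of each gene was a sum of whole reads with 4 fixed weights, so the reads of each library could be solved for 22667 of the 23333 tested genes (97.15%) and for all 10 EXOSC genes. The libraries held an estimated 24572301 and 21329148 reads on tested genes for the nuclear and 24236887 and 21869347 for the cytoplasmic fraction. The other 666 genes, among them those with the highest counts, entered these totals through their fraction means and made up 21.5% to 22% of the nuclear and 47.6% to 48.5% of the cytoplasmic totals. In each fraction the deeper library is named a and the shallower one b, since which of them is replicate 1 is not known. A normalized count is the read count divided by the library's size factor, which was 1.341 and 1.1892 for nuclear libraries a and b and 0.8529 and 0.7546 for cytoplasmic libraries a and b. The nuclear lncRNAs MALAT1 and NEAT1 had log2 fold changes (cytoplasmic over nuclear) of -3.47 and -3.09, so that both were higher in the libraries labelled nuclear.

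Of the 10 EXOSC genes, 5 were higher in the cytoplasmic fraction at an adjusted p of at most 0.01 in the deposited test, 0 were higher in the nuclear fraction, and 5 did not pass. The genes that passed were EXOSC4, EXOSC6 and EXOSC5 of the ring and EXOSC1 and EXOSC2 of the cap, with log2 fold changes from 2.70 down to 0.63. Over all tested genes, 52.4% were called, 25.9% as cytoplasmic and 26.5% as nuclear, and over the 15336 tested protein-coding genes the shares were 35.6% and 28.4%. The median log2 fold change was 0.49 over the EXOSC genes, 0.11 over protein-coding genes and -0.12 over all tested genes. A share of 5 in 10 lies above these backgrounds for the cytoplasmic direction, but 10 genes are few and the list itself was not tested. The backgrounds hold genes of all genomic spans, and the share called cytoplasmic was higher among short genes, as given below with gene structure. They also hold genes measured less well, which pass less easily in either direction. The median standard error was 0.29 over all tested genes, while those of the EXOSC genes ran from 0.11 to 0.23. With each library scaled to the same total every log2 fold change was 0.66 lower, and the calls were then 4 cytoplasmic (EXOSC1, EXOSC4, EXOSC5 and EXOSC6) and 2 nuclear (EXOSC7 and EXOSC10), against 16.2% and 38.3% of all tested genes. That shift comes mainly from the 666 genes without solved reads, for with equal totals over the genes with solved reads, a scaling added after seeing the data, the values were 0.07 lower and the same 5 genes were called cytoplasmic, against 24.9% of all tested genes.

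**Figure D1:**
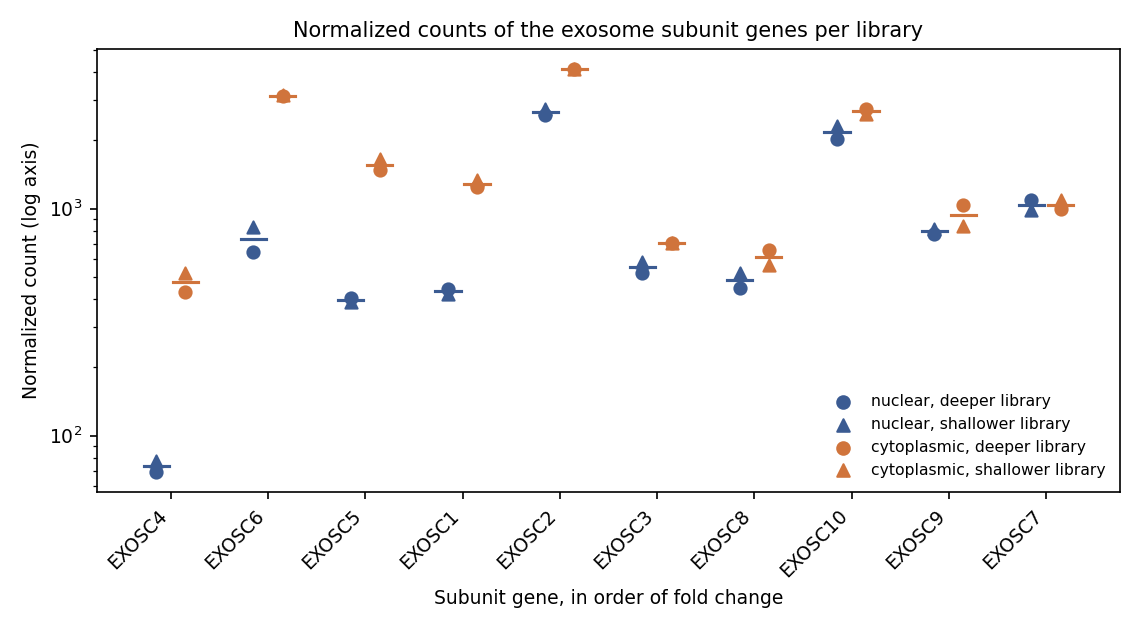
Normalized counts (log axis) of the 10 EXOSC genes in each of the 4 libraries, ordered from the highest to the lowest fold change. Blue symbols are nuclear and orange symbols cytoplasmic libraries, circles the deeper and triangles the shallower library of a fraction, and short lines the mean of 2 libraries; both cytoplasmic libraries lie above both nuclear ones for 9 genes at this scaling, and EXOSC7 overlaps.

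EXOSC4 (ENSG00000178896), the counterpart of yeast Rrp41 in the ring, had the largest fold change of the family. The gene lies on the plus strand of chromosome 8, from 144078648 to 144080648 in hg38, and its canonical transcript has 3 exons. Its normalized counts were 69.4 and 77.4 in nuclear libraries a and b and 429 and 521 in cytoplasmic libraries a and b. The nuclear mean of 73.4 ± 5.66 (SD, n = 2) and the cytoplasmic mean of 475 ± 64.8 (SD, n = 2) were clearly separate, and the log2 fold change was 2.70 ± 0.23 (SE, deposited adjusted p = 7.02e-31). It was also the gene of the family with the fewest reads, 93 and 92 in the nuclear and 366 and 393 in the cytoplasmic libraries, and had the widest error.

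EXOSC6 (ENSG00000223496), the counterpart of yeast Mtr3, is the one gene of the family without an intron. It covers 70246778 to 70251940 on the minus strand of chromosome 16. Its normalized counts were 645 and 831 in the nuclear and 3140 and 3151 in the cytoplasmic libraries. The cytoplasmic libraries were close to each other, the nuclear ones were not, and the groups did not overlap. Its log2 fold change was 2.09 ± 0.14 (SE, deposited adjusted p = 1.76e-49).

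EXOSC5 (ENSG00000077348), the counterpart of Rrp46, lies on the minus strand of chromosome 19, from 41386371 to 41397362, and has 6 exons. Normalized counts of 402 and 387 in the nuclear and 1474 and 1650 in the cytoplasmic libraries gave a log2 fold change of 1.98 ± 0.14 (SE, deposited adjusted p = 1.24e-42). The spread of the cytoplasmic libraries, 1562 ± 125 (SD, n = 2), was small against the difference from the nuclear mean of 394.

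The other ring genes, EXOSC7, EXOSC8 and EXOSC9, encode the counterparts of Rrp42, Rrp43 and Rrp45, and did not pass the test. EXOSC7 (ENSG00000075914; chromosome 3, plus strand, 44975241 to 45036066) had normalized counts of 1088 and 991 in the nuclear and 993 and 1091 in the cytoplasmic libraries. The fractions thus overlapped fully, and the log2 fold change of 0.00 had a 95% interval from -0.27 to 0.28 (deposited adjusted p = 0.988). For EXOSC8 (ENSG00000120699; chromosome 13, plus strand, 36998816 to 37025881) the counts were 446 and 522 in the nuclear and 655 and 563 in the cytoplasmic libraries, with a log2 fold change of 0.33 and a standard error of 0.17 (deposited adjusted p = 0.0841). EXOSC9 (ENSG00000123737; chromosome 4, plus strand, 121801318 to 121817021) was at 773 and 817 in the nuclear and 1035 and 840 in the cytoplasmic libraries, with a log2 fold change of 0.24 and a standard error of 0.15 (deposited adjusted p = 0.17). Both genes were slightly higher in each cytoplasmic library, by less than the error of the fit allows to call.

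In the cap, EXOSC1 and EXOSC2 passed and EXOSC3 did not. EXOSC1 (ENSG00000171311; chromosome 10, minus strand, 97435909 to 97446017), the counterpart of Csl4, had normalized counts of 441 and 422 in the nuclear and 1239 and 1334 in the cytoplasmic libraries. These gave a log2 fold change of 1.57 ± 0.14 (SE, deposited adjusted p = 5.53e-27), a ratio of the means of 2.98. EXOSC2 (ENSG00000130713; chromosome 9, plus strand, 130693721 to 130707288), the counterpart of Rrp4, had normalized counts of 2579 and 2743 in the nuclear and 4107 and 4108 in the cytoplasmic libraries. Its log2 fold change of 0.63 was small beside those of the other called subunits but well measured, with a standard error of 0.11 (deposited adjusted p = 3.60e-08). EXOSC2 moved with equal library totals to -0.04 with an adjusted p of 0.797, so that its cytoplasmic call was lost with that scaling alone of the 4 that were used.

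EXOSC3 (ENSG00000107371; chromosome 9, minus strand, 37759234 to 37832117), the counterpart of Rrp40, is known as a gene mutated in a pontocerebellar hypoplasia. Its normalized counts were 519 and 584 in the nuclear and 704 and 708 in the cytoplasmic libraries. Although the groups did not overlap, the log2 fold change of 0.36 ± 0.16 (SE) did not pass (deposited adjusted p = 0.0406), and it turned to -0.31 with equal library totals (adjusted p = 0.0784).

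EXOSC10 (ENSG00000171824; chromosome 1, minus strand, 11066618 to 11099869) encodes the exonuclease that is itself mostly nuclear. Its RNA was at 2026 and 2317 in the nuclear and 2746 and 2615 normalized counts in the cytoplasmic libraries, and the groups did not overlap. The log2 fold change was 0.30 ± 0.12 (SE, deposited adjusted p = 0.0226) and did not pass. Scaled to equal library totals it was -0.36 and was called nuclear (adjusted p = 0.00618).

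The scaling decided the direction of the genes in the lower part of the order. With the deposited size factors, both cytoplasmic libraries lay above both nuclear libraries for 9 of the 10 genes, against 39.9% of the genes with solved reads. With equal library totals they did so for 4 genes, against 26.9%, and both nuclear libraries lay above both cytoplasmic ones for 5, against 59.3%. In RPM, reads scaled to the total of each library, EXOSC4 was at 3.78 and 4.31 in the nuclear and 15.1 and 18 in the cytoplasmic libraries, higher in the cytoplasm. EXOSC7 was at 59.4 and 55.2 RPM in the nuclear and 34.9 and 37.6 RPM in the cytoplasmic libraries. The log2 fold changes of EXOSC7, EXOSC9, EXOSC10, EXOSC8, EXOSC3 and EXOSC2 turned negative, at -0.66, -0.42, -0.36, -0.33, -0.31 and -0.04, and of these EXOSC7 (adjusted p = 5.45e-06) and EXOSC10 passed. EXOSC4, EXOSC6, EXOSC5 and EXOSC1 stayed positive at 2.03, 1.43, 1.32 and 0.91, and all passed. Set to 0 at the median of protein-coding genes, which lowers the values by 0.11, the 5 cytoplasmic calls were kept, and EXOSC7 turned to -0.11. With equal totals over the genes with solved reads EXOSC7 was at -0.07, and the other 9 genes stayed positive, from 0.17 for EXOSC9 to 2.62 for EXOSC4.

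In the order of the fold changes, 3 of the 9 neighbouring pairs were at least 2 errors apart, taking the errors of different genes as independent. EXOSC4 lay above EXOSC6 by 0.60 with an error of 0.27, EXOSC5 above EXOSC1 by 0.41 with an error of 0.20, and EXOSC1 above EXOSC2 by 0.95 with an error of 0.18. EXOSC6 and EXOSC5 differed by 0.11, less than their error of 0.20. From EXOSC2 down to EXOSC7 no neighbours were 2 errors apart, with steps from 0.02 to 0.27. The step between EXOSC1 and EXOSC2 was thus the widest in units of its error, at 5.23, and over all 45 pairs of the family 31 were at least 2 errors apart. These differences do not depend on the scaling, which moves all genes by the same amount.

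Per kilobase of canonical transcript, the subunit RNAs were spread over a wide range in the nuclear and a narrower one in the cytoplasmic fraction. Nuclear means ran from 87.1 normalized counts per kb for EXOSC4 to 1323 for EXOSC2, a ratio of 15.2. Cytoplasmic means ran from 389 per kb for EXOSC3 to 2042 for EXOSC2, a ratio of 5.25. The nuclear order was EXOSC2, EXOSC7, EXOSC10, EXOSC9, EXOSC8, EXOSC5, EXOSC1, EXOSC3, EXOSC6 and EXOSC4, in which only the neighbours EXOSC8 and EXOSC5 overlapped between libraries. In the cytoplasm EXOSC5, at 1565 per kb, and EXOSC1, at 1124, followed EXOSC2. EXOSC7 and EXOSC10 then overlapped each other at 1000 and 959 per kb, and EXOSC6, EXOSC9, EXOSC4 and EXOSC8, at 609, 591, 564 and 523, each overlapped the next. These levels count intronic reads but divide by exonic length, and stretches shared with other genes were not counted, so they are only approximate.

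The ring is built from 3 pairs of subunits, EXOSC4 with EXOSC9, EXOSC5 with EXOSC8 and EXOSC6 with EXOSC7, each joining an Rrp41-like to an Rrp42-like protein. The Rrp41-like genes EXOSC4, EXOSC5 and EXOSC6 were those called cytoplasmic, and the Rrp42-like genes EXOSC7, EXOSC8 and EXOSC9 were those not called. This grouping was made after the values were seen and is given as a description. The ratio of the reads of partners within a library has the advantage of not depending on any scaling between libraries.

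The EXOSC4 to EXOSC9 read ratio was 0.0898 and 0.0947 in nuclear libraries a and b and 0.414 and 0.62 in cytoplasmic libraries a and b. For EXOSC5 to EXOSC8 it was 0.901 and 0.741 in the nuclear and 2.25 and 2.93 in the cytoplasmic libraries. For EXOSC6 to EXOSC7 it was 0.593 and 0.839 in the nuclear and 3.16 and 2.89 in the cytoplasmic libraries. For all 3 pairs both cytoplasmic ratios were above both nuclear ones. For EXOSC5 with EXOSC8 and EXOSC6 with EXOSC7 the partner with more reads changed from the Rrp42-like to the Rrp41-like gene. Read counts are not corrected for transcript length or shared stretches, so which partner has more reads does not rank their levels. Per kb of canonical transcript, EXOSC6 was below EXOSC7 in both fractions, at means of 143 and 997 in the nuclear and 609 and 1000 in the cytoplasmic libraries. EXOSC5 and EXOSC8 overlapped per kb in the nuclear libraries, and EXOSC5 was higher in the cytoplasmic ones, at 1565 and 523. The log2 fold changes of the partners differed by 2.46 (95% interval 1.91 to 3.0), 1.65 (1.21 to 2.09) and 2.09 (1.70 to 2.48), which corresponds to 5.48, 3.14 and 4.26 times. Of all reads on the EXOSC genes, EXOSC4, EXOSC5 and EXOSC6 together made up 12.4% and 13.4% in the nuclear and 30.5% and 32.1% in the cytoplasmic libraries. EXOSC7, EXOSC8 and EXOSC9 together made up 25.7% and 24% in the nuclear and 16.2% and 15% in the cytoplasmic libraries.

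**Figure D2:**
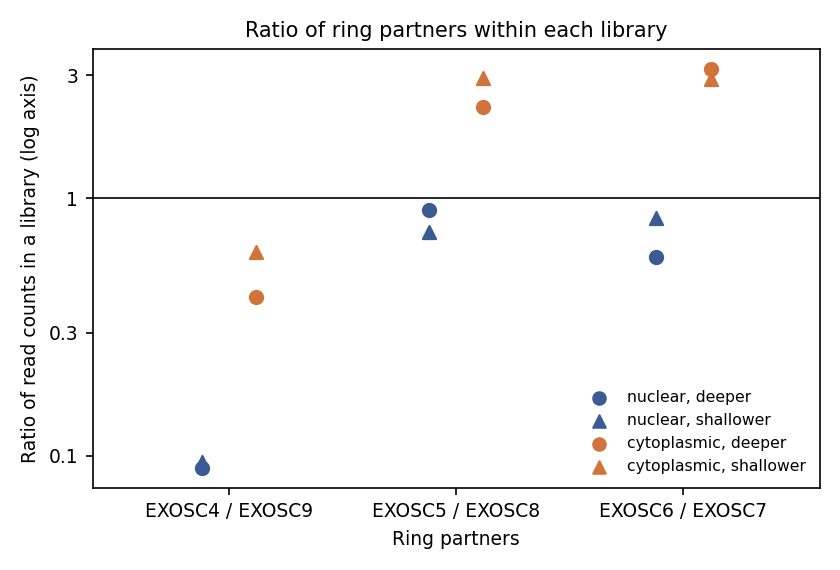
Ratio of the read counts of ring partners within each library (log axis), for EXOSC4 over EXOSC9, EXOSC5 over EXOSC8 and EXOSC6 over EXOSC7. Blue symbols are nuclear and orange symbols cytoplasmic libraries, circles the deeper and triangles the shallower library, and the line marks equal counts; each pair is higher in both cytoplasmic libraries, from 0.0898 and 0.0947 to 0.414 and 0.62 for the first pair.

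Gene structure moved with the fold change as well. Reads over introns were counted, and over 15314 tested protein-coding genes the Spearman correlation of the canonical transcript's genomic span with the log2 fold change was -0.60. Over the 10 EXOSC genes it was -0.79, and -0.74 for the number of exons, but -0.16 for the length of the spliced transcript, all as descriptions across genes that share the same 4 libraries. EXOSC4 spans 1.98 kb and EXOSC6 5.16 kb, while EXOSC10 spans 33.3 kb in 25 exons and EXOSC7 35.2 kb in 8 exons. When protein-coding genes were split into 10 deciles by span, the median log2 fold change fell from 2.04 in the decile of the shortest to -1.94 in that of the longest. The share called cytoplasmic was 65.7% in the decile of EXOSC4 and 59.2% in that of EXOSC3, EXOSC6 and EXOSC8. It was 54.1% in that of EXOSC1, EXOSC2 and EXOSC5, 50.3% in that of EXOSC9 and 35.1% in that of EXOSC7 and EXOSC10. By the span of the whole gene, the deciles that hold EXOSC genes ran from 67.1% to 15.3%. The 5 in 10 called here thus lies within the shares of genes of like span.

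Against genes of like span, the place of an EXOSC gene depended on which span was taken. Isoforms of the later annotation extend the gene span of EXOSC3 to 72.9 kb, of EXOSC7 to 60.8 kb and of EXOSC8 to 27.1 kb, beside 5.35, 35.2 and 8.83 kb for their canonical transcripts. By either measure 8 of the 10 genes lay within the middle 50% of their decile, but not the same 8. EXOSC5 lay above it both ways, at 1.04 over the median of its decile by gene span and 1.02 by canonical span, with 84% and 82.1% of the genes there at a lower value. EXOSC3 lay above it by gene span, at 0.87 over the median, and within it by canonical span, at 0.98 below. EXOSC6 lay within it by gene span, at 0.07 over the median, and above it by canonical span, at 0.75 over. EXOSC8 was 0.04 below the median by gene span and 1.00 below by canonical span, within the middle 50% both ways. EXOSC4, which led the family, was 0.67 and 0.65 above the median of the shortest genes, and 72.8% and 71.9% of them had a lower value.

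Among the ring partners, EXOSC4 and EXOSC6 are shorter than EXOSC9 and EXOSC7 by both measures. EXOSC5, at 11 kb, is shorter than EXOSC8 by gene span and longer than it by canonical span, so the order of this pair depends on the measure. The part of span and introns in the fold changes of single EXOSC genes was not tested.

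**Figure D3:**
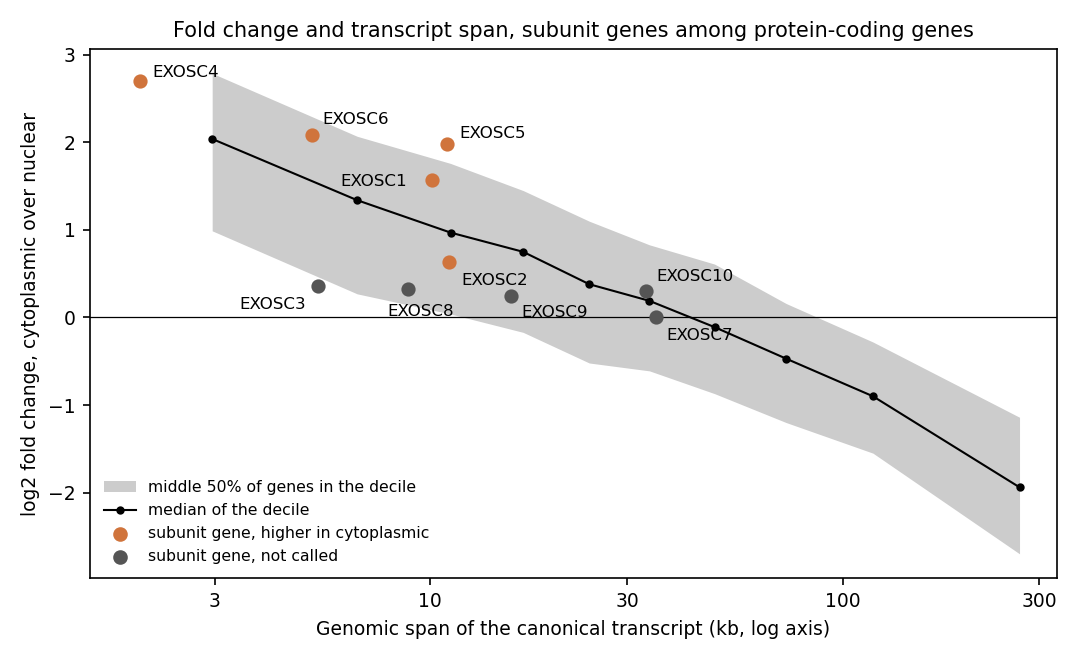
Log2 fold change (cytoplasmic over nuclear) against the genomic span of the canonical transcript (kb, log axis). The black line joins the medians of deciles of 15314 protein-coding genes, each drawn at its median span, the grey band holds the middle 50% of each decile, and dots are the EXOSC genes, orange where called cytoplasmic and grey where not called; EXOSC5 and EXOSC6 lie above the middle 50% of their deciles by this measure. Between the medians the band is interpolated, so EXOSC3, which is within the middle 50% of its decile, is drawn just under it. For the same reason EXOSC6, which is above the middle 50% of its decile, is drawn inside the band. EXOSC4 lies left of the first median.

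Annotated neighbours overlap several EXOSC genes, and the study removed stretches covered by more than 1 gene before counting. In GENCODE 44, a later annotation than the study's, other genes cover 55.5% of the canonical exons of EXOSC7, 27.1% of those of EXOSC4, 26% of EXOSC8, 19.4% of EXOSC10 and 16% of EXOSC9. EXOSC1, EXOSC2, EXOSC5 and EXOSC6 meet no other gene. The canonical exons of EXOSC3 are free of overlap, but other genes cover 52.8% of its exons over all isoforms and 70.4% of its span. EXOSC7 shares its strand with CLEC3B, which was at -2.23 ± 0.74 (SE), and meets ZDHHC3, at 1.01 ± 0.13 (SE), on the opposite strand. EXOSC9 meets CCNA2, the cyclin A2 gene, at its end, and CCNA2 was at 1.97 ± 0.12 (SE). EXOSC8 overlaps SUPT20H and ALG5, at -0.48 and -0.77, and EXOSC3 isoforms overlap DCAF10 and TRMT10B, at 0.37 and -0.90. EXOSC10-AS1, an antisense lncRNA that shares 440 bases with EXOSC10 and lies mostly outside it, had normalized counts of 11.9 and 6.73 in the nuclear and 52.8 and 55.7 in the cytoplasmic libraries, and a log2 fold change of 2.53 ± 0.60 (SE, deposited adjusted p = 5.30e-05). A second antisense lncRNA, ENSG00000226849, lies within EXOSC10 over 4627 bases, and ENSG00000255224 shares 618 bases with EXOSC4 on the opposite strand. Both had low means, 5.76 and 11.3 normalized counts, and were not called, at -1.41 ± 1.31 (SE) and 0.13 ± 0.90 (SE). RNU5B-3P in EXOSC7 was not tested, and MIR6847 in EXOSC4 and ENSG00000289295 in EXOSC3 were not analysed here. The pseudogene EXOSC3P2 had a mean of 0.186 and was not tested. A strand setting for the counting is not given in the sources used here. How far these neighbours touch the EXOSC values was not tested.

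The catalytic subunits DIS3 and DIS3L both passed in the cytoplasmic direction, although one protein acts mainly in the nucleus and the other in the cytoplasm. That call was also made for 25.9% of all tested genes and 35.6% of protein-coding genes. Neither DIS3 nor DIS3L was set against genes of like span. DIS3 had normalized counts of 2019 and 2222 in the nuclear and 3691 and 3577 in the cytoplasmic libraries, a log2 fold change of 0.78 ± 0.12 (SE, deposited adjusted p = 4.86e-11). DIS3L was at 855 and 867 in the nuclear and 1358 and 1260 in the cytoplasmic libraries, a log2 fold change of 0.60 ± 0.13 (SE, deposited adjusted p = 1.58e-05). Both lost the call with equal library totals, and they lay at 0.11 and -0.06. DIS3L2, a relative that degrades uridylated RNA without the exosome, was nuclear at -1.82 ± 0.13 (SE, deposited adjusted p = 6.64e-43).

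Cofactors select the RNAs that enter the barrel. In the cytoplasm the SKI complex, with the helicase SKIV2L and its partners TTC37 and WDR61, feeds mRNA to the exosome, and HBS1L gives rise to an isoform that bridges the complexes. All 3 SKI genes passed in the cytoplasmic direction, WDR61 at 1.11, TTC37 at 0.64 and SKIV2L at 0.52, and HBS1L did not, at 0.30 ± 0.11 (SE, deposited adjusted p = 0.0105). Of all tested genes 25.9% were called cytoplasmic, and of protein-coding genes 35.6%. The cytoplasmic cofactors are few and were not set against genes of like span. The normalized counts of WDR61 were 653 and 597 in the nuclear and 1232 and 1466 in the cytoplasmic libraries. With equal library totals WDR61 was called cytoplasmic at 0.45 and HBS1L nuclear at -0.36, and TTC37 and SKIV2L were at -0.02 and -0.14.

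Of the 20 nuclear cofactor genes, 11 were called nuclear and 6 cytoplasmic, and 3 did not pass, with a median log2 fold change of -0.53. Over all tested genes 26.5% were nuclear and 25.9% cytoplasmic, so the cytoplasmic share of this list, 30%, was close to that of all genes. The 20 genes differ in span, from PABPN1 at 23321457 to 23326163 on chromosome 14 to ZCCHC7 at 37120574 to 37358149 on chromosome 9. They were not set against genes of like span, so the part of span in this split was not tested. The TRAMP complex adds short A tails to nuclear RNA for decay. Its 3 genes other than the shared helicase MTREX were nuclear, with ZCCHC7 at -3.65, TENT4B at -1.41 and TENT4A at -0.61. ZCCHC7 was the most nuclear gene of all the lists, with normalized counts of 5477 and 4848 in the nuclear and 442 and 382 in the cytoplasmic libraries. MTREX, the helicase common to the nuclear complexes, was at -0.03 ± 0.11 (SE, deposited adjusted p = 0.808), with 3395 and 3352 nuclear and 3377 and 3211 cytoplasmic normalized counts. In the NEXT complex, which targets promoter upstream and enhancer RNAs, RBM7 was cytoplasmic at 1.21 and ZCCHC8 nuclear at -0.92.

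The PAXT connection directs polyadenylated nuclear RNAs to the exosome, and its genes were likewise divided. ZFC3H1 was nuclear at -1.43 and RBM26 at -2.30, PABPN1 was cytoplasmic at 1.09, and ZC3H3 at -0.44 and RBM27 at -0.22 did not pass. Of the genes that act at the 5′ cap, NCBP2 at 1.52, SRRT at 0.38 and NCBP1 at 0.37 were cytoplasmic and ZC3H18 at -0.41 nuclear. C1D, which binds EXOSC10, and MPHOSPH6, which binds the core, were nuclear at -0.94 and -1.55, and NRDE2, which holds back MTREX, was nuclear at -0.75. Of the cofactors in ribosome production, NOP53 was cytoplasmic at 2.95, with 787 and 927 nuclear and 7008 and 6218 cytoplasmic normalized counts, and NVL nuclear at -0.93. With equal library totals 14 of the 20 were nuclear, against 38.3% of all tested genes, MTREX now among them at -0.70, and 2, NOP53 and NCBP2, cytoplasmic, while SRRT and NCBP1 turned to -0.28 and -0.29 and were not called.

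**Figure D4:**
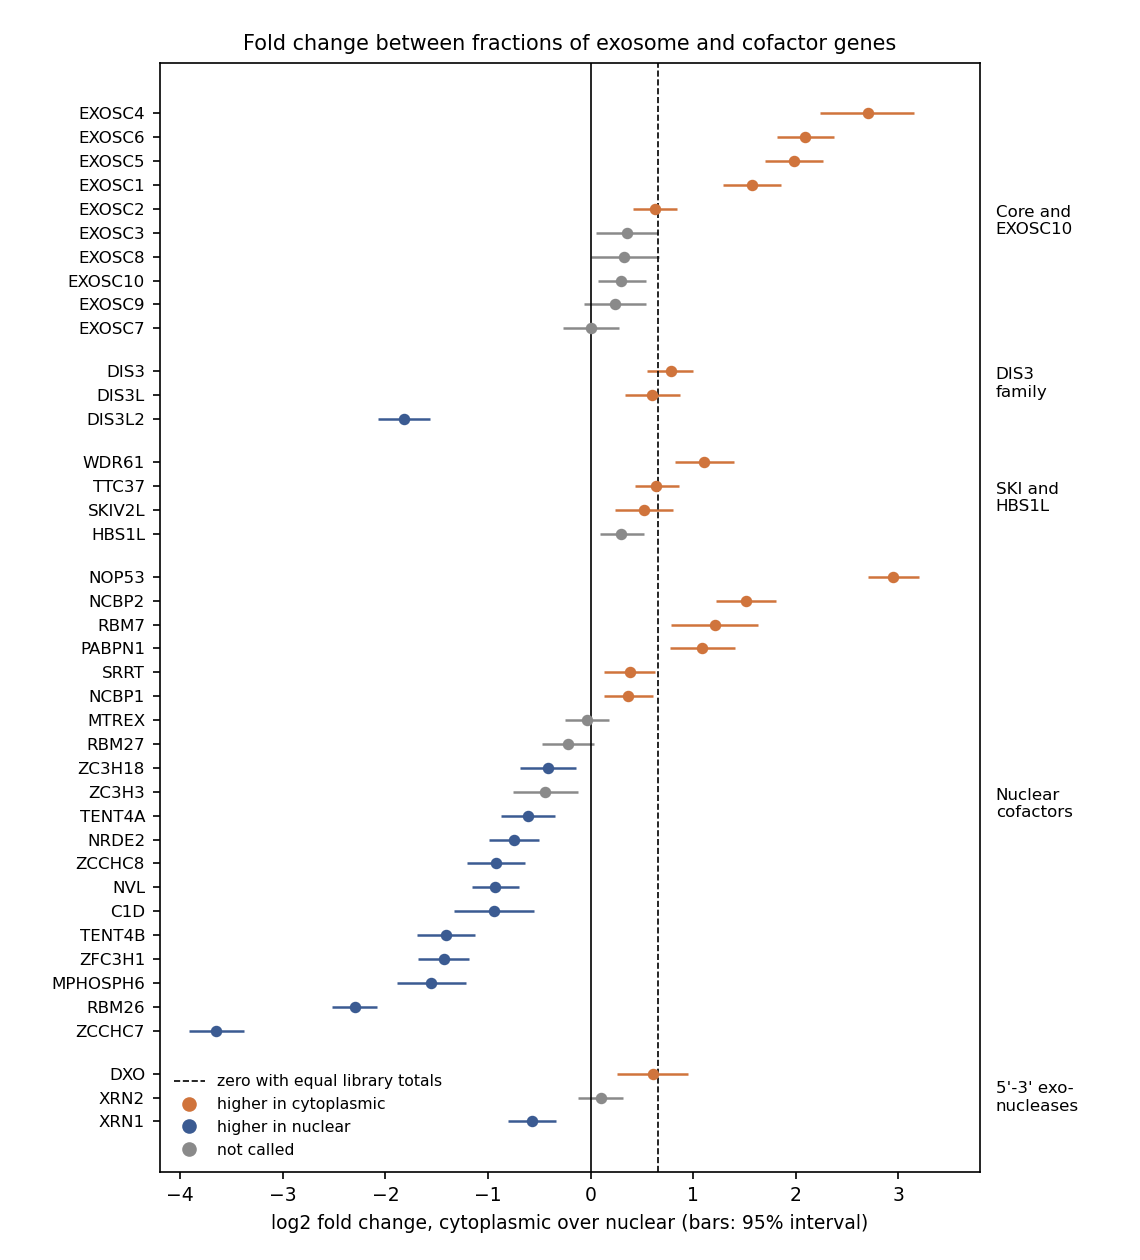
Log2 fold change (cytoplasmic over nuclear) of the EXOSC genes, the DIS3 family, cofactors and 5′ to 3′ exonucleases, with 95% intervals from the deposited standard errors. Orange marks genes called cytoplasmic, blue nuclear and grey not called, the solid line is 0 at the deposited scaling and the dashed line, at 0.66, is where 0 falls with equal library totals; the EXOSC genes run from 2.70 for EXOSC4 to 0.00 for EXOSC7.

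The 5′ to 3′ exonucleases, which degrade RNA from the other end, were divided as well. XRN1, the cytoplasmic enzyme, had an RNA that was higher in the nuclear fraction, at -0.57 ± 0.12 (SE, deposited adjusted p = 3.68e-06). XRN2, the nuclear enzyme, was at 0.10 ± 0.11 (SE, deposited adjusted p = 0.473), and was called nuclear at -0.56 with equal library totals. DXO, which removes faulty caps, was cytoplasmic at 0.61 ± 0.18 (SE, deposited adjusted p = 0.00116), and at -0.06 with equal library totals.

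limma on the solved counts called the same 5 EXOSC genes, with adjusted p-values from 5.21e-07 for EXOSC5 to 2.43e-04 for EXOSC2, against 58.7% of 22667 genes called in either direction and 27.2% as cytoplasmic. Without either cytoplasmic library it called these 5 again, and 50.3% and 49.2% of all genes. Without nuclear library a, and likewise without nuclear library b, limma called 0 of the 10 EXOSC genes and 0 of all 22667 genes at an adjusted p of at most 0.01, although 56.3% and 57.3% of all genes had an unadjusted p under 0.05. The log2 fold changes of the 5 genes stayed close to those of the whole set, at 2.60 and 2.76 for EXOSC4, 1.92 and 2.28 for EXOSC6, 2.01 and 1.95 for EXOSC5, 1.61 and 1.54 for EXOSC1 and 0.58 and 0.67 for EXOSC2, with limma adjusted p-values from 0.0119 to 0.0371. With 2 libraries against 2, an exact permutation test of a single gene cannot go below a two-sided p of 0.333.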

How the data were processed

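RNA of nuclear and cytoplasmic fractions of HEK293T cells was sequenced in 2 biological replicates each. Per the labels and the study's methods, the authors aligned paired 100 nt reads of stranded, ribosome-depleted libraries to hg38 with STAR, counted them with featureCounts 2.0.2 over exons and introns together in an extended GENCODE annotation, without stretches shared by genes, and compared the fractions with DESeq2. The deposited table holds 1 row per gene, 51740 in all. Its mean normalized count is a signal that the authors averaged over the 4 libraries. The deposited fold change and standard error are on the log2 scale, the deposited statistic is a Wald score, and the deposited p-values were adjusted by Benjamini-Hochberg by the authors over 23333 genes. As the table holds no column of counts, this comparison was used as it stands, called at an adjusted p of at most 0.01, in place of a count test. The adjusted p and the errors rest on 2 libraries a fraction. EXOSC genes, cofactor lists and alternatives were chosen with earlier results of these data known.

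Size factors were read from genes with a single read. Whole-read counts were then solved as the whole numbers that give the deposited mean and the deposited fold change (within 1e-06). The deposited standard error set the spread in that fit and was not a separate check. For means up to 8, and for other low means without such a solution, the mean alone was used. Counts were used where 1 solution was left. On simulated data of 799 genes, 791 had 1 solution, and all 791 were right. These genes had neither the lowest nor the highest means and were made with the model used for solving. The simulation therefore cannot show errors at other means or a difference of that model from the authors' fit. limma 3.58.1 was run on log2(normalized count + 0.5) of 22667 genes and, on simulated data with known changes, called 89 of 100 genes changed by 1 on the log2 scale and 100 of 100 changed by 2. That simulation changed few genes and gave all genes the same variance setting, unlike the data, so it does not measure how well calls hold here. Calls among its unchanged genes are not reported here. Fold changes were also set to equal library totals, in all or over genes with solved reads, and to the median of protein-coding genes, with p-values recomputed from the deposited errors. Structures came from GENCODE 44 on hg38, in which 99.95% of the tested protein-coding genes were matched by identifier. The rule for named genes took all EXOSC genes, listed genes, EXOSC pseudogenes and genes overlapping an EXOSC gene. Intervals cover the error of the fit only.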

Additional observations from a re-analysis of the deposited data

How the results depend on the processing

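The 5 cytoplasmic EXOSC calls were also made by Bonferroni adjustment, by centring on protein-coding genes, with equal totals over genes with solved reads, by requiring an absolute log2 fold change over 0.5 and a mean over 50, by adjusting again over genes with a mean over 50, and by limma, and an adjusted p of at most 0.05 gave 7. Equal library totals gave 6, of which 2 were nuclear. Leaving out each library in turn gave 0 to 5 calls in limma: 0 without either nuclear library, and 5 without either cytoplasmic library. With a nuclear library left out, the remaining nuclear library is assumed to vary like the cytoplasmic ones, and no gene of the table passed; the cause was not tested.

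With equal library totals the log2 fold changes of EXOSC2, EXOSC3, EXOSC8, EXOSC10, EXOSC9 and EXOSC7 turned to -0.04, -0.31, -0.33, -0.36, -0.42 and -0.66, by construction of that scaling. EXOSC7, at 0.00, was also at -0.11 when centred on protein-coding genes, at -0.07 with equal totals over genes with solved reads, and from -0.06 to 0.07 when each library was left out. Of the lists, catalytic subunits had 0 calls with equal library totals and 1 by Bonferroni adjustment in place of 2, and 5′ to 3′ exonucleases 0 by Bonferroni adjustment in place of 2, because that limit is stricter. The other counts of calls stayed within 1.5 times, though equal library totals turned some to nuclear. With limma errors 3 neighbouring pairs were again apart, and by gene span, which isoforms of the later annotation extend for EXOSC3, EXOSC7 and EXOSC8, 8 EXOSC genes lay in the middle 50% of their decile, as by canonical span, with EXOSC3 in place of EXOSC6 outside it. Canonical span, equal totals over solved genes and the ratios of partners were chosen after seeing the data.

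No paired analysis was possible because the table holds no column per replicate and the solved libraries carry no replicate number to pair them by. Count tests with other tools were set for a file that holds counts and were not run on the solved counts. EXOSC4, with under 100 reads in each nuclear library, has the least depth.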
